A study of Homo sapiens with 12 samples.

Results

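Perifosine was given to HD-MyZ cells both with and without sorafenib, and the change described here is the one it made when averaged over these backgrounds. HD-MyZ is an established human cell line from a Hodgkin lymphoma, and all cultures were collected after 24 hours. The 6 arrays with perifosine were the combination (10 µM perifosine plus 5 µM sorafenib, 3 arrays) and perifosine alone (10 µM, 3 arrays). The 6 arrays without it were sorafenib alone (5 µM, 3 arrays) and the control (neither drug, 3 arrays). The members were chosen by the presence of perifosine in the sample names, and they are all 12 of the 12 arrays of the series. Expression was read as biotin-labelled cRNA on Illumina beadchips, with 3 arrays lettered A, B and C in each of the 4 groups. Nothing in the labels ties the lettered arrays to cultures of their own, and the p-values therefore cover only the spread among these samples, which may be technical. The design holds 1 cell line, 1 dose of each drug and 1 time.

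Perifosine is an alkylphospholipid that enters membranes and keeps the kinase AKT from reaching them. AKT signals growth and survival: it restrains the FOXO transcription factors, which switch on genes of cell-cycle arrest and cell death, and it relieves mTORC1, the kinase complex that drives protein synthesis, from its brake, the TSC complex. Sorafenib inhibits RAF kinases, which act above ERK, and several receptor tyrosine kinases. Averaging over sorafenib gives the mean of the perifosine changes with and without that drug. A large change in only a single setting can also produce an averaged change.

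The deposited intensities were fitted for 18852 genes as log2 values, and a log2 change of 1 is a doubling in intensity units. No background had been subtracted, so the changes of dim genes are understated. The densest intensity was 275 and the highest was 71906. Of the Hodgkin cell markers, 10 of 18 had a mean log2 intensity of at least 9, beside 9587 of all 18852 genes. This count therefore does not set the Hodgkin markers apart from other genes. FSCN1 and LGALS1 lay at 15.78 and 15.84, while TNFRSF8 (CD30) and CCL17 lay at background, at 8.12 and 8.0. No T cell marker of 10, 1 of 10 B and plasma cell markers and 1 of 11 monocyte and macrophage markers reached 9, against 8 of 11 fibroblast and stroma markers, among them COL1A2 at 15.07. In a bulk extract, fewer cells with a transcript and less of it per cell cannot be told apart. In each of the control, sorafenib and combination groups 1 array stood apart from its mates: C, B and A in that order. In these 3 arrays the oxidative phosphorylation list lay below its group mean by medians of -0.36, -0.69 and -0.50. Values without them, or values of single arrays, are therefore given for several results that rest on them.

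Perifosine raised 4 genes and lowered 4 in the averaged effect, and each of the 8 moved the same way with and without sorafenib. The risers were TCIM, THBD, DDIT4 and HEY1, and the genes that fell were THBS1, TBC1D2, AXIN2 and WWC1. They are 8 of 18852 genes, or 0.0424% (0.0212% in each direction), at an adjusted p under 0.05 by limma with Benjamini-Hochberg adjustment, with sorafenib as a covariate. At an unadjusted p under 0.05 the count was 1124, or 5.96%. The averaged changes ran from 0.77 to 0.97 in the risers and from -1.10 to -0.53 in the genes that fell, so THBS1 was the only one of the 8 past a doubling or halving. The values of the same arrays chose these 8 genes. In this model a difference between the settings adds to the residual spread, so their shared direction is largely fixed by the choice. With sorafenib none of the 8 passed on its own, with adjusted p of at least 0.597 by limma.

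The number of genes called moved more with the choice of arrays and model than the changes did. A model of 4 group means called 28 genes, 18 higher (0.0955%) and 10 lower (0.053%), in all 0.149%, among them all 8. Leaving out control C, sorafenib B and combination A together gave 34, of which 7 were among the 8 (AXIN2 was lost, at an adjusted p of 0.0505 by limma). Normexp background correction left 2, TCIM and THBS1. Leaving out any single control or perifosine array gave 0. Leaving out sorafenib B gave 18, combination B gave 1, and the other 4 arrays with sorafenib gave 5 to 7. Over these 12 settings the change of TCIM stayed between 0.89 and 1.02 and that of THBS1 between -1.17 and -0.98.

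**Figure D1:**
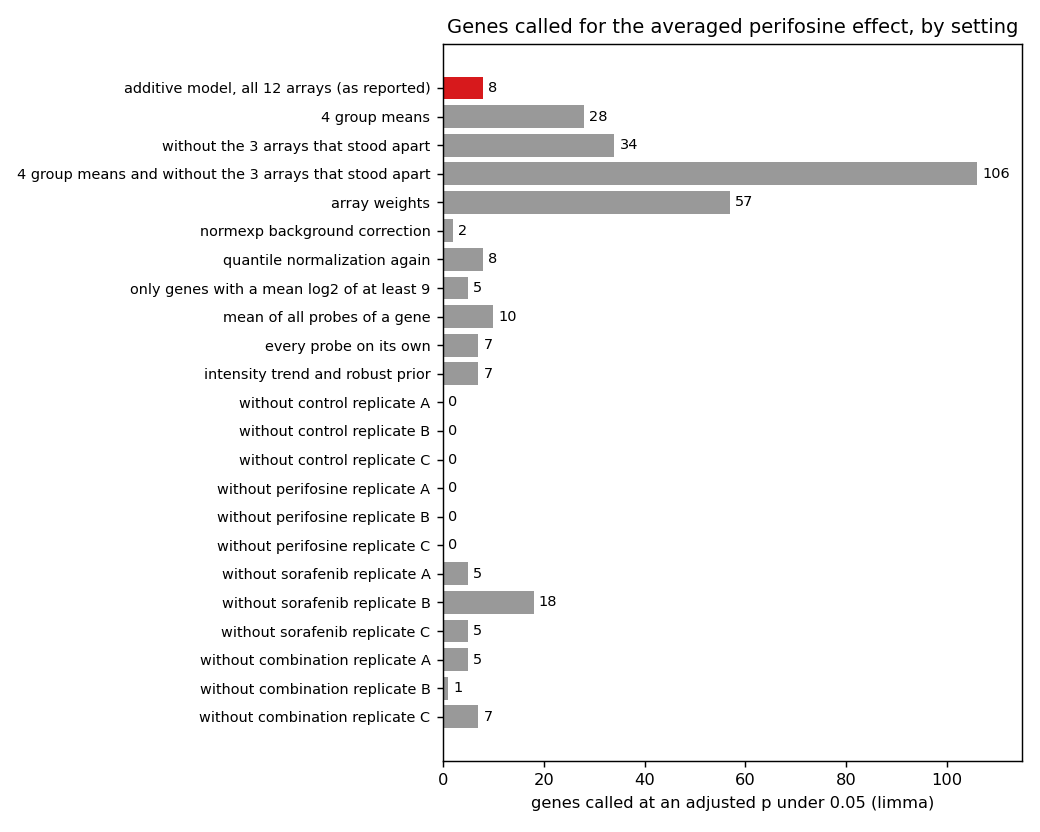
Number of genes called at an adjusted p under 0.05 for the averaged perifosine effect (bars, horizontal axis) under each setting drawn (vertical axis), with the reported setting in red at 8. The replicate block is not drawn. The bars run from 0, without any single control or perifosine array, to 106 under 4 group means without the 3 arrays that stood apart.

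TCIM, whose protein binds Chibby, an inhibitor of beta-catenin signalling, rose most of the genes called. Its intensity was 1698, 1716 and 1432 in combination arrays A, B and C, against 932, 650 and 996 in the sorafenib arrays. Perifosine alone gave 3592, 4274 and 3918, against 1585, 2102 and 2244 in control. The groups did not overlap in either setting, and the arrays with sorafenib sat lower than those without it at the same perifosine state. The averaged log2 change was 0.97 (SE 0.12, adjusted p = 0.029 by limma), made up of 0.93 with sorafenib (95% interval 0.54 to 1.32) and 1.0 without it.

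THBD encodes thrombomodulin, the cell-surface receptor that turns thrombin from clotting towards activation of protein C. It measured 2117, 1758 and 2393 in the combination arrays, against 1130, 1443 and 1347 in the sorafenib arrays. Without sorafenib it measured 6152, 6194 and 7132 in perifosine arrays, against 3397, 2596 and 3437 in control arrays. Every array with perifosine lay above its partners, although all 6 arrays with sorafenib lay below the lowest control. Its averaged change was 0.86 (SE 0.12, adjusted p = 0.029 by limma), with 0.67 in the presence of sorafenib and 1.05 in its absence.

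DDIT4 (REDD1), an inhibitor of mTORC1 that acts through the TSC complex and a target of the stress factor ATF4, rose in both settings. Its intensity was 16634, 18654 and 19775 in the combination arrays, against 14386, 10763 and 11384 in the sorafenib arrays. It was 4641, 4862 and 5113 with perifosine alone, against 3044, 2143 and 2379 in control. All 6 arrays with sorafenib lay above all 6 without it, and within each setting the perifosine arrays lay above their partners. The averaged change of DDIT4 was 0.78 (SE 0.11, adjusted p = 0.0377 by limma), at 0.60 with sorafenib and 0.96 without.

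HEY1, a transcriptional repressor switched on by Notch receptors, measured 3343, 2883 and 3196 in the combination arrays, against 1803, 2594 and 1959 in the sorafenib arrays. It measured 2237, 2494 and 2396 in perifosine arrays, against 1358, 1025 and 1342 in control arrays. Both settings were without overlap, and sorafenib B was the array nearest to the treated ones. Its averaged change was 0.77 (SE 0.12, adjusted p = 0.0426 by limma), the closest of the 8 to the threshold. A second, dimmer HEY1 probe with a mean log2 intensity of 8.92 had a log2 difference of 0.60 with sorafenib and 0.16 without it.

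THBS1, which encodes thrombospondin-1, a secreted matrix glycoprotein that restrains the growth of blood vessels, fell furthest. Its intensity was 2269, 1667 and 2051 in the combination arrays, against 3965, 6668 and 3993 in the sorafenib arrays. Perifosine alone gave 2246, 2578 and 2640, against 4163, 4979 and 5321 in control. The 6 arrays with perifosine and the 6 without it did not overlap at all, whichever sorafenib state they had. The averaged change was -1.10 (SE 0.14, adjusted p = 0.029 by limma), or 2.15-fold lower, and it was -0.98 without the 3 arrays that stood apart, of which sorafenib B held the highest THBS1 value.

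TBC1D2 (Armus), which switches off the endosomal GTPase RAB7, measured 2256, 1641 and 2095 in the combination arrays, against 2750, 3517 and 2873 in the sorafenib arrays. With perifosine alone it measured 1105, 1119 and 1094, against 1838, 1918 and 2078 in control. The 3 perifosine arrays lay within a narrow band, with an SD of 12.7 around 1106. TBC1D2 fell by 0.71 on the log2 scale (SE 0.10, adjusted p = 0.029 by limma), at -0.61 with sorafenib and -0.81 without.

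AXIN2, a scaffold of the complex that degrades beta-catenin and itself a target of beta-catenin, measured 977, 1103 and 991 in the combination arrays, against 1264, 1439 and 1383 in the sorafenib arrays. It measured 705, 808 and 737 in perifosine arrays, against 1250, 1096 and 1261 in control arrays. The treated arrays lay below their partners in both settings. Its change was -0.55 (SE 0.08, adjusted p = 0.0379 by limma), at -0.41 with sorafenib and -0.68 without.

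WWC1 (KIBRA), an upstream activator of the Hippo pathway, was close to background, with a mean log2 intensity of 8.91. It measured 422, 378 and 362 in the combination arrays, against 636, 590 and 508 in the sorafenib arrays. Perifosine alone gave 437, 414 and 400, against 632, 575 and 554 in control. The treated arrays were again below all of their partners, and the levels with and without sorafenib overlapped. Its change was -0.53 (SE 0.08, adjusted p = 0.0377 by limma), and -0.78 after normexp background correction, where its adjusted p was 0.0567.

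**Figure D2:**
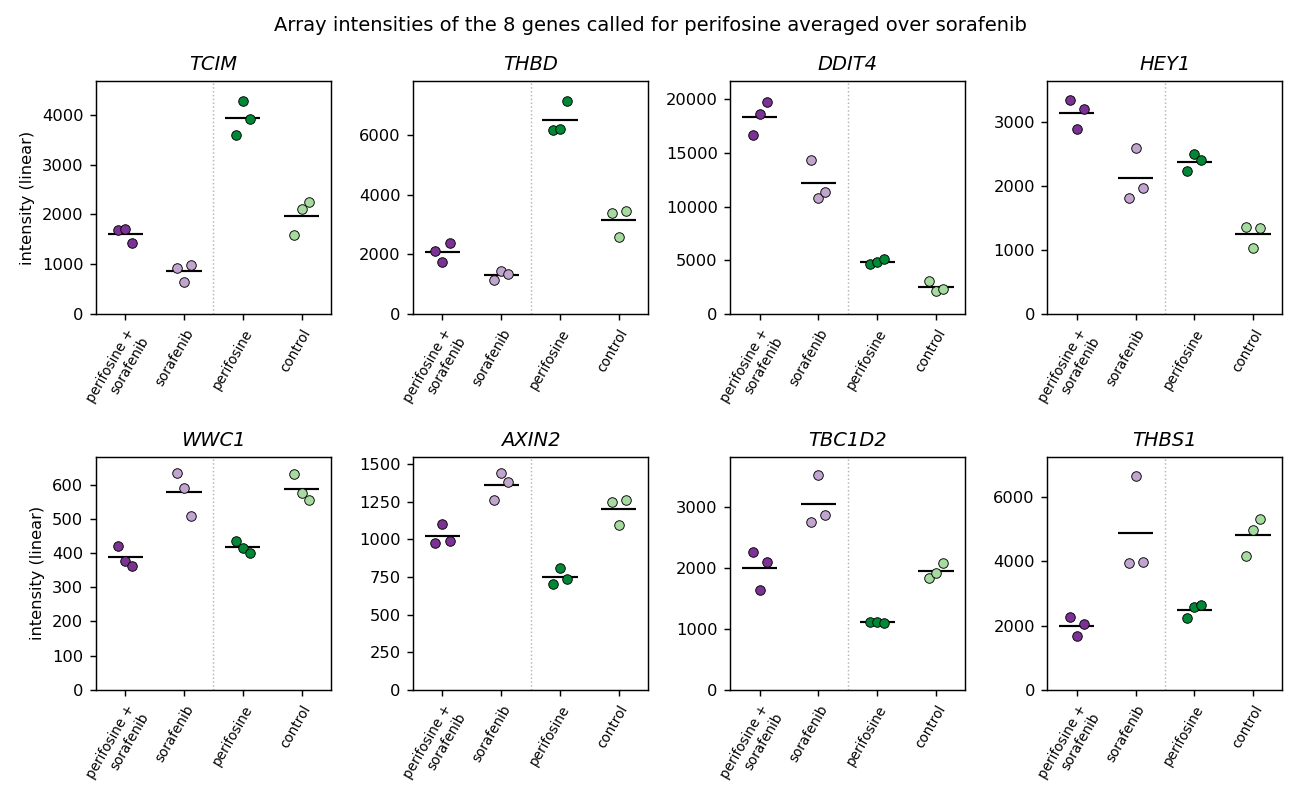
Intensity on a linear scale (vertical axis) of the 8 genes called in the averaged effect on each of the 12 arrays; points are arrays, bars are group means and the dotted line parts the arrays with sorafenib (left) from those without (right). In every panel the arrays with perifosine lie wholly above or wholly below their partners, as in THBS1 at 1667 to 2269 in the combination against 3965 to 6668 with sorafenib.

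The stretches before the start of DDIT4, a gene that rose, and THBS1, the one that fell furthest, are shown because both hold a CCAAT box, the element bound by the factor NF-Y. They are the 250 bases upstream, from RefSeq on GRCh38.p14, at chr10:72273674-72273923 and chr15:39580829-39581078, both on the plus strand, with the box in capitals in its reverse form.
DDIT4: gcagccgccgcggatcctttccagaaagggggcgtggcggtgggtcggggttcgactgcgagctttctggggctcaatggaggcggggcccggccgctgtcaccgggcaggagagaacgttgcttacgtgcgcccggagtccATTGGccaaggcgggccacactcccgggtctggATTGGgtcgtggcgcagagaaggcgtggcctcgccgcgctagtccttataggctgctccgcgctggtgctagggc
THBS1: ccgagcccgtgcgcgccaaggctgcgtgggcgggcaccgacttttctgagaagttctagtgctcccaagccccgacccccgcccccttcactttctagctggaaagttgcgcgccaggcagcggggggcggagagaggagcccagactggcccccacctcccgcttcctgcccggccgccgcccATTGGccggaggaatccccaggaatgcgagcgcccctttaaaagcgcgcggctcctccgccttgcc

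The DDIT4 stretch held the box 2 times, starting 108 and 75 bases before the gene start, and the THBS1 stretch once, at 66 bases. This motif was added after the sequences had been seen. It stood in 34.7% of the 14873 promoters of measured genes, in 34.8% of those of genes higher without overlap in both settings and in 42% of those lower. Promoters were matched for 4 of the 8 genes, also TBC1D2 and WWC1. None of the 4 held, on either strand, AP-1 (TGANTCA), CRE (TGACGTCA), FOXO (GTAAACA), ATF4 (TGATGNAA), the sterol response element (TCACNCCAC), E2F (TTTCCCGC, TTTCGCGC, TTTGCCGC or TTTGGCGC) or NF-kB motifs, which stood in 0.874% to 5.67% of all promoters. None of the spelled motifs contains another.

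The effect of perifosine was smaller in the presence of sorafenib for 6 of the 8 genes, and larger for THBS1 and WWC1. None of these differences passed the test, with adjusted p of at least 0.99 by limma. The choice of the 8 genes favoured small differences, so this is no separate evidence of equal effects. The intervals were wide: the difference, with minus without sorafenib, was -0.07 for TCIM (95% interval -0.62 to 0.47), -0.36 for DDIT4 (-0.82 to 0.09) and 0.27 for AXIN2 (-0.05 to 0.59). A p that misses the threshold does not show that the changes are equal.

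Taken setting by setting, perifosine without sorafenib changed 56 genes (0.297%), 38 upward (0.202%) and 18 downward (0.0955%). Perifosine added to sorafenib changed 0 by limma, with 643 genes, or 3.41%, at an unadjusted p under 0.05, against 1348, or 7.15%, without sorafenib. Both settings had an unadjusted p under 0.05 and the same sign for 104 genes (0.552%). The difference between the settings was called for 3 genes (0.0159%), MMP10, MMP1 and FERMT1, with 921, or 4.89%, at an unadjusted p under 0.05. Of the 56 genes, 44 had the same sign with sorafenib, 14 of them at an unadjusted p under 0.05 and 15 without overlap. The values without sorafenib chose these genes. Their median change with sorafenib was 0.09 for the 38 that rose and -0.19 for the 18 that fell. RHOB, a small GTPase gene, had 703, 728 and 786 in the combination arrays, against 507, 617 and 652 with sorafenib, a change of 0.33. It had 1726, 1987 and 1367 with perifosine alone, against 522, 349 and 402 in control, a change of 2.00. RHOB was higher without overlap in both settings, and its averaged change of 1.16 had an adjusted p of 0.25 by limma with sorafenib as a covariate and 0.00503 under 4 group means.

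Genes chosen in one setting can be read in the other, since the settings share no array; here each setting was fitted on its own 6 arrays. Of the 100 genes with the highest moderated statistic without sorafenib, 75 were also higher with it, and of the 100 lowest 75 were also lower, against 49.5% and 50.5% of all genes. Of those 200 genes, 12 of the higher and 11 of the lower were also at an unadjusted p under 0.05, against 1.08% and 0.822% of all genes. In the other direction, 63 of the 100 highest with sorafenib were also higher without it, and 48 of the 100 lowest were also lower. All genes stood at 49.5% and 50.5%. With an unadjusted p under 0.05 as well, 24 of the highest and 21 of the lowest kept their sign, against 5.58% and 5.79% of all genes. Of these genes, 3 of the highest and 2 of the lowest had the opposite sign at that p. Across all 18852 genes the changes of the settings had a Pearson r of 0.10. It was 0.13 over 9587 genes with a mean log2 of at least 9 and 0.21 for these without the 3 arrays that stood apart. Genes are not independent replicates, and all of them were read on the same 12 arrays.

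**Figure D3:**
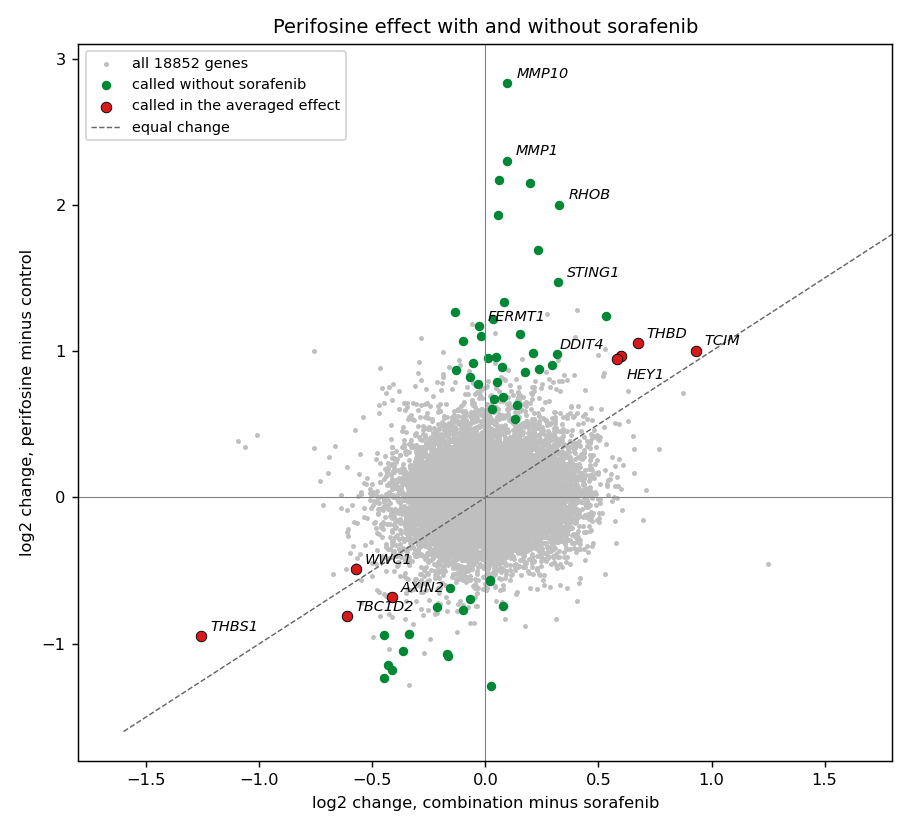
Log2 change by perifosine with sorafenib (horizontal axis) and without it (vertical axis) for 18852 genes; red points are the 8 genes called in the averaged effect, green points the other genes called without sorafenib, and the dashed line marks equal change. The red points lie in the same quadrants on both axes, while MMP10, at 2.83 without sorafenib, lies at 0.10 with it.

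The groups lay apart in both settings for more genes than passed the test. Without overlap in the same direction in both settings were 174 genes, the 8 called genes included (0.923%), 88 higher (0.467%) and 86 lower (0.456%). Without the 3 arrays that stood apart the counts were 602 higher (3.19%) and 631 lower (3.35%), over 3 perifosine arrays and 2 arrays of each other group. Fewer arrays make a lack of overlap easier to reach by chance. How many genes would lie apart by chance, with or without these 3 arrays, was not tested. Of the 174 over all arrays, 35 had an averaged change of at least 0.5 in size, 18 higher and 17 lower, again with the 8 among them. The uncalled genes named from them here, other than RHOB, were chosen after their values were seen. The genes just outside the threshold were TP53TG3 (0.45, adjusted p = 0.058 by limma) and GJB2 (0.89, adjusted p = 0.0756 by limma), which encodes the gap junction protein connexin 26.

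GJB2 measured 1248, 1414 and 1014 in the combination arrays, against 747, 911 and 868 with sorafenib. Perifosine alone gave 2945, 2680 and 2082, against 1143, 1060 and 1029 in control. Its change was 0.53 with sorafenib and 1.24 without it, and it was called under 4 group means (adjusted p = 0.0147 by limma). CDKN1A, the cyclin-dependent kinase inhibitor p21, measured 5194, 4481 and 4218 in the combination arrays, against 3783, 3199 and 3240 with sorafenib. It measured 13557, 12116 and 14565 with perifosine alone, against 8463, 6740 and 9040 in control. Its values were 0.44 with sorafenib and 0.74 without, with an averaged adjusted p of 0.0994 by limma and 0.0412 under 4 group means.

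PMAIP1 (NOXA), which promotes cell death by binding MCL1, had a log2 difference of 0.53 with sorafenib and 1.01 without it. Its value with sorafenib leans on sorafenib A, the lowest of its group. Sorafenib arrays A, B and C measured 2497, 4657 and 4853 for PMAIP1, against 5450, 5387 and 5805 in the combination. KLF2, a transcription factor and FOXO target, had 0.34 with sorafenib and 0.80 without. BHLHE40, a repressor of the circadian clock, had 0.30 with sorafenib and 0.91 without. ID2, an inhibitor of basic helix-loop-helix factors, had the larger value with sorafenib, 0.77 in the presence of sorafenib and 0.33 in its absence. BEX4 had 0.59 with sorafenib and 0.51 without, and TGIF1, a repressor of TGF-beta responses, had 0.52 with sorafenib and 0.48 without. These 6 genes had averaged adjusted p of 0.13 to 0.39 by limma, and of them BHLHE40 was called under 4 group means (adjusted p = 0.0147 by limma). In KLF2, BEX4 and TGIF1 the differences with sorafenib lean on sorafenib B, an array that stood apart and the lowest of its group. Sorafenib arrays A, B and C measured 13863, 9273 and 13255 for KLF2, against 15743, 14521 and 15038 in the combination. They measured 2012, 1096 and 1683 for BEX4, and 2802, 1704 and 2999 for TGIF1.

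Among the genes lower without overlap, APLN, which encodes the peptide apelin, had -0.41 with sorafenib and -1.18 without it. CPA4, a secreted carboxypeptidase, had -0.43 with sorafenib and -1.15 without, and NEXN, an actin-binding protein gene, had -0.37 with sorafenib and -1.05 without. The NEXN value with sorafenib leans on sorafenib B. NEXN measured 3227, 2715 and 3021 in the combination arrays, against 3274, 4908 and 3527 with sorafenib. NRG1, the ligand neuregulin-1 of ERBB receptors, measured 4800, 4059 and 4139 in the combination arrays, against 5695, 8354 and 5321 with sorafenib. It measured 2810, 2437 and 3359 with perifosine alone, against 4516, 4414 and 5170 in control. Its values were -0.55 with sorafenib and -0.72 without. ALDH1A1, a retinaldehyde dehydrogenase, had -0.45 with sorafenib and -0.94 without. Of these 5 genes, APLN, CPA4, NEXN and ALDH1A1 were called under 4 group means and none with sorafenib as a covariate, where their adjusted p ran from 0.11 to 0.18 by limma.

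TRIB3, a pseudokinase that binds AKT and an ATF4 target, had close values in both settings. It measured 7170, 6074 and 5343 in the combination arrays, against 4483, 4522 and 5267 with sorafenib. It measured 3956, 3656 and 3558 with perifosine alone, against 2591, 2799 and 3167 in control. The perifosine arrays were higher without overlap each time, by 0.38 with sorafenib and 0.39 without, but the averaged adjusted p was 0.254 by limma. The targeted kinases did not pass either: AKT1 had an averaged value of -0.10 (SE 0.11) and AKT2 of 0.04 (SE 0.12).

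Of the members of 22 lists, DDIT4 in the ATF4 list was the only gene called in the averaged effect, beside 8 of all 18852 genes (0.0424%). At so small a share, a list without a call says little about its members. Of the ATF4 targets, genes of the amino acid and stress response, 27 of 33 were higher and 6 lower. Their median was 0.12, with 0.17 in the presence of sorafenib and 0.08 in its absence, beside a median of 0.00 and 9532 of 18852 higher for all genes. DDIT3 (CHOP), a transcription factor of the stress response, had 0.51 with sorafenib and 0.41 without, and ASNS, asparagine synthetase, 0.17 with sorafenib and 0.64 without, neither called.

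Of the FOXO targets 15 of 31 were higher, with a median of -0.01. The FOXO target FBXO32, a ubiquitin ligase of muscle wasting, was higher without overlap in both settings, at 0.48 with sorafenib and 0.46 without (averaged adjusted p = 0.196 by limma). KLF6 and GADD45A, with the brightest probes of the list, had averaged values of 0.38 and 0.47, uncalled. The PI3K, AKT and mTOR pathway list had a median of 0.00, with 14 of 27 higher. Of the p53 targets 14 of 23 were higher (median 0.05), and of the BCL2 family 13 of 19 (median 0.04), where BCL2L1 and MCL1, which oppose cell death, had -0.04 and 0.04.

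Genes of DNA replication lay lower without sorafenib. Of the DNA replication and G1/S list, 37 of 39 members had a negative averaged change (median -0.29), and 20 of 39 were lower in both settings, against 4990 of all 18852 genes. The median was -0.03 with sorafenib and -0.47 without it, so the count lower in both settings does not show a fall with sorafenib. On single arrays, as differences from the group without perifosine, it was 0.12, -0.07 and -0.09 in combination A, B and C, against 0.00, 0.05 and -0.13 with sorafenib. Perifosine alone gave -0.50, -0.48 and -0.50, against -0.09, -0.02 and 0.14 in control. The 3 perifosine arrays thus lay below every control array, while the combination arrays overlapped the sorafenib arrays.

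In the perifosine arrays without sorafenib 4 of the 39 replication genes fell, beside 18 of all 18852 genes (0.0955%): E2F2 and CDT1, a transcription factor and a licensing factor of replication, by 0.77 and 0.74 on the log2 scale, UNG, a uracil-DNA glycosylase, by 0.70, and CHAF1B, a histone chaperone subunit, by 0.57 (adjusted p of 0.021 to 0.0396 by limma). The values with sorafenib, in the same order of genes, were -0.10, 0.08, -0.07 and 0.02. Whether the list differed between the settings was not tested. Without the 3 arrays that stood apart the medians were -0.06 with sorafenib and -0.39 without. ORC6 and MCM7, with the brightest probes of the list, had averaged values of -0.01 and -0.13.

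Ribosome biogenesis genes were lower in 28 of 30 members, with a median of -0.11, at -0.01 with sorafenib and -0.24 without. NCL, nucleolin, had -0.17 and BOP1, a factor of large-subunit assembly, -0.13. Mitosis genes were lower in 27 of 33 members in the averaged effect (median -0.11). CDC20, an activator of the anaphase-promoting complex, had 0.07 and PTTG1, securin, 0.10. The mitosis median was -0.05 with sorafenib and -0.23 without. As differences from the sorafenib group, the list was high in sorafenib B, at 0.39, against -0.19 and -0.17 in sorafenib A and C. Combination A, B and C, at 0.11, -0.13 and -0.08, lay within that range. Without the arrays that stood apart the medians were 0.03 with sorafenib and -0.16 without. The averaged count therefore does not show a fall with sorafenib. Members of neither list passed the test in the averaged effect or in either setting.

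**Figure D4:**
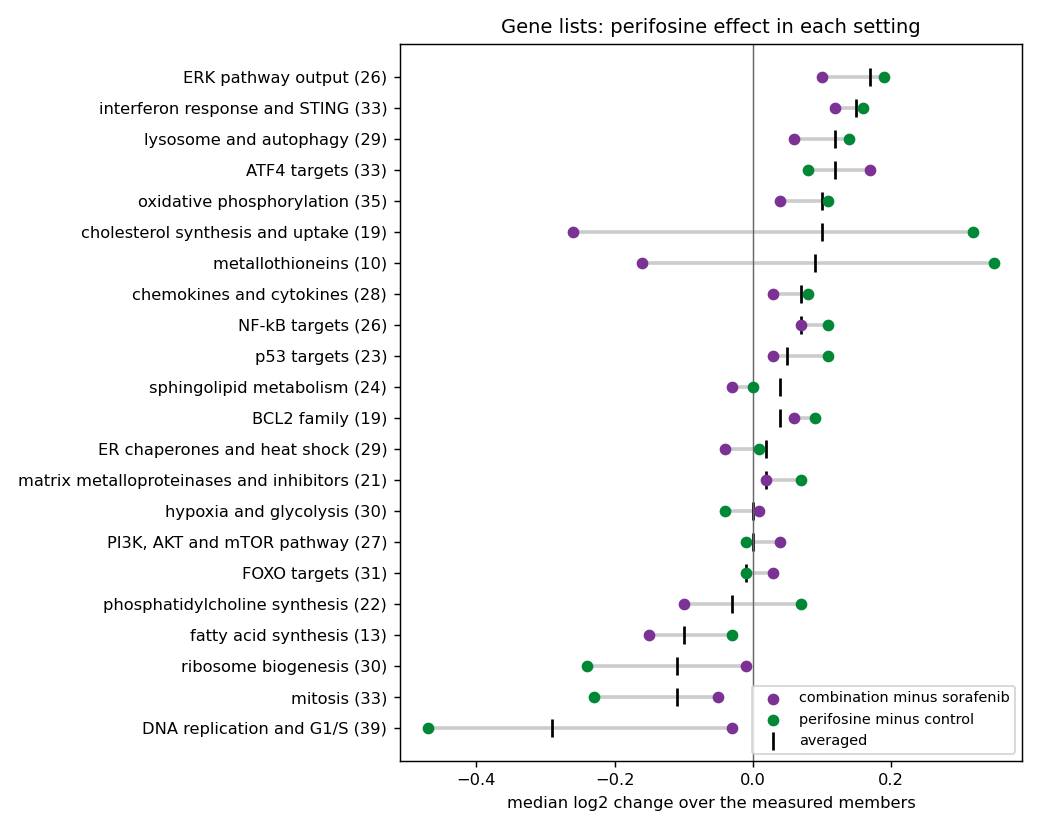
Median log2 change by perifosine over the measured members of each of 22 gene lists (members in parentheses), with sorafenib (purple), without it (green) and averaged (black tick). The DNA replication list lies at -0.03 and -0.47, and the cholesterol list at -0.26 and 0.32, on opposite sides of 0.

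Lipid genes bear on a drug that is itself a lipid analogue. Cholesterol synthesis and uptake genes had a median of -0.26 with sorafenib and 0.32 without it, so the averaged median of 0.10 stands for neither setting. HMGCS1, an early enzyme of the pathway, had -0.47 with sorafenib and 0.63 without, and SQLE, squalene epoxidase, had -0.34 with sorafenib and 0.31 without. On single arrays the list stood at -0.22, -0.19 and -0.01 in the combination, against -0.01, -0.11 and 0.10 with sorafenib. Perifosine alone gave 0.23, 0.35 and 0.37, against -0.08, -0.11 and 0.21 in control. Control C, one of the arrays that stood apart, was the highest control, and without those 3 arrays the medians were -0.12 and 0.43. None of the 19 members was called in the averaged effect or in either setting, and the difference of the list between settings was not tested.

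Phosphatidylcholine synthesis, the pathway that alkylphospholipids are known to inhibit, had a median of -0.03, with 12 of 22 members lower. CHKA, choline kinase alpha, had -0.16 with sorafenib and fell by 0.62 on the log2 scale without it (adjusted p = 0.0355 by limma). LPCAT1, which adds an acyl chain to lysophosphatidylcholine, was lower without overlap in both settings, at -0.48 with sorafenib and -0.45 without (averaged adjusted p = 0.306 by limma). Fatty acid synthesis genes had a median of -0.10 with 9 of 13 lower, FASN at -0.21 and SCD at -0.11. As differences from the sorafenib group, that list was high in sorafenib B, at 0.38, against -0.17 and -0.08 in sorafenib A and C. Without the arrays that stood apart its averaged median was -0.03, with -0.16 in the presence of sorafenib and 0.04 in its absence. Over all arrays the medians with and without sorafenib were -0.15 and -0.03. The sphingolipid list had a median of 0.04 with 13 of 24 higher.

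Interferon response genes lay slightly higher in both settings. Of the list 29 of 33 were higher in the averaged effect and 20 were higher in both settings, the latter beside 4805 of all 18852 genes. The list medians were 0.12 with sorafenib and 0.16 without. Leaving out the 3 arrays that stood apart, the medians were 0.07 with sorafenib and 0.14 without. By array the list stood at 0.11, 0.19 and 0.10 in the combination, against 0.03, -0.05 and 0.03 with sorafenib. It stood at 0.18, 0.19 and 0.21 with perifosine alone, against 0.03, 0.08 and -0.09 in control. The arrays with perifosine did not overlap their partners, although no member passed the averaged test with sorafenib as a covariate. STING1, the adaptor of cytosolic DNA sensing, had 0.32 with sorafenib and rose by 1.47 without it (adjusted p = 0.0134 by limma). Its value with sorafenib leans on sorafenib B. STING1 measured 1897, 2015 and 1764 in the combination arrays, against 1738, 1054 and 1888 with sorafenib. IRF7, a transcription factor of the response, was higher without overlap in both settings, at 0.27 with sorafenib and 0.50 without (averaged adjusted p = 0.25 by limma).

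ERK pathway output, downstream of the RAF kinases that sorafenib inhibits, had a median of 0.17 with 19 of 26 members higher, at 0.10 with sorafenib and 0.19 without. DUSP6, a phosphatase that switches off ERK, measured 3620, 2822 and 3016 in the combination arrays, against 2260, 3267 and 2549 with sorafenib. It measured 8138, 7490 and 7232 with perifosine alone, against 4329, 3489 and 4684 in control. DUSP6 had 0.24 with sorafenib, where the groups overlapped, and rose by 0.88 without it (adjusted p = 0.0471 by limma). PHLDA1 and CCND1, with the brightest probes of the list, had averaged values of 0.37 and -0.16, uncalled.

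Lysosome and autophagy genes were higher in 24 of 29 members (median 0.12), NF-kB targets in 18 of 26 (0.07), and chemokines and cytokines in 23 of 28 (0.07). CTSL, cathepsin L, had 0.03, IER3 0.50 and CXCL8 (interleukin 8) 0.51, all uncalled. Of the 28 chemokines and cytokines tested, 3 rose in perifosine arrays without sorafenib, beside 38 of all 18852 genes (0.202%). CCL3L3 had 0.06 with sorafenib and rose by 2.17 without it, CCL3 had 0.20 and rose by 2.15, and CCL3L1 had 0.23 and rose by 1.69 (adjusted p without sorafenib of 0.00506 to 0.0204 by limma). These genes are near-identical copies whose probes may read each other's transcripts, so which of them rose is uncertain. CCL3L1 was also called in the averaged effect under 4 group means, as were MMP10 and MMP1. Of the lysosome list, ARSB, arylsulfatase B, had -0.13 with sorafenib and rose by 1.27 without it (adjusted p = 0.00665 by limma). Matrix metalloproteinases and their inhibitors had a median of 0.02, with TIMP1 at 0.31, and of their 21 members MMP10 and MMP1 rose without sorafenib. Hypoxia and glycolysis and ER chaperones and heat shock had medians of 0.00 and 0.02. Oxidative phosphorylation genes were higher in 30 of 35 members with a median of 0.10, but the list was low in control C, sorafenib B and combination A, and without these arrays the median was -0.04. The metallothioneins likewise had 0.09 with all arrays and -0.08 without these 3. No marker list for Hodgkin cells or for the other 5 cell types had a member called, beside 0.0424% of all genes. Their medians lay between -0.09 and 0.03.

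**Figure D5:**
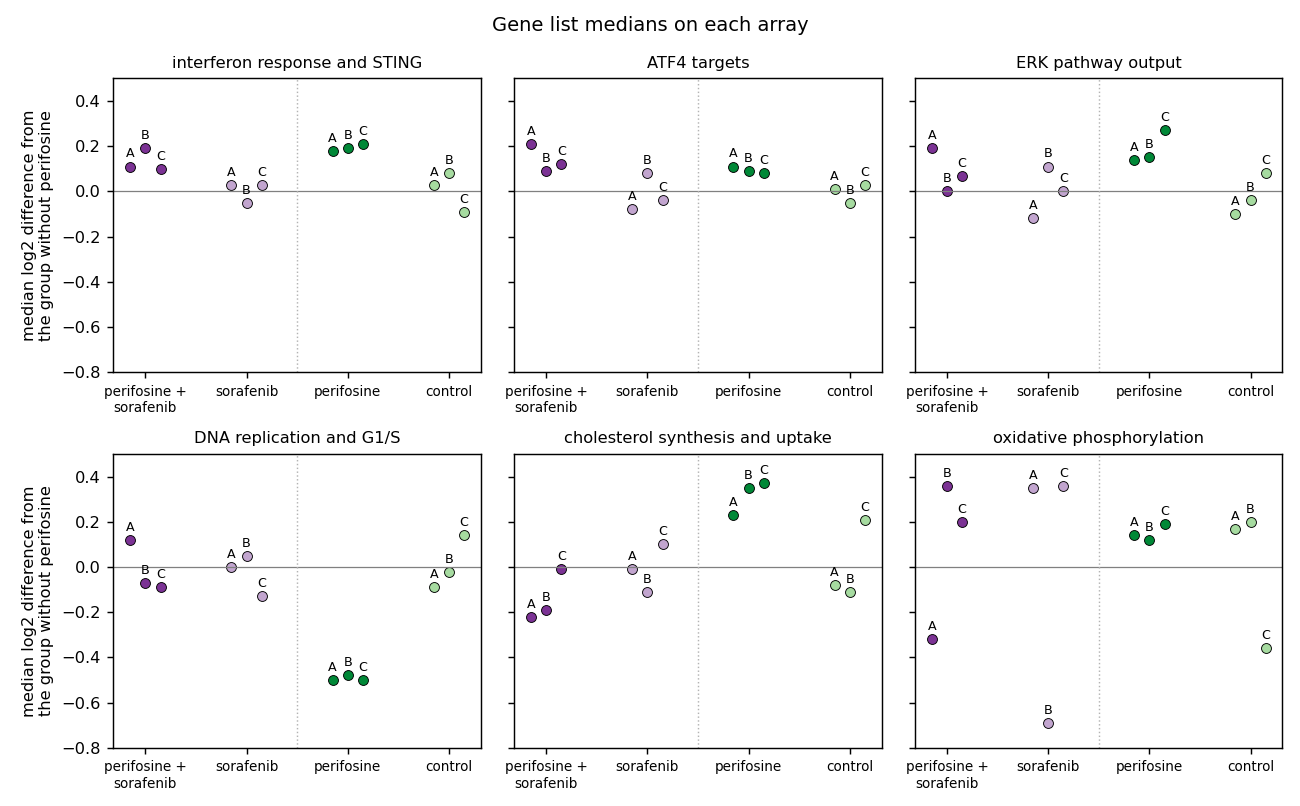
Median log2 difference of 6 gene lists from the mean of the group without perifosine in the same setting (vertical axis), for each array A, B and C of the 4 groups (horizontal axis). Interferon genes lie at 0.10 to 0.21 in the arrays with perifosine and at -0.09 to 0.08 in the others, whereas oxidative phosphorylation is low in control C, sorafenib B and combination A.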

How the data were processed

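Values are the authors' deposited intensities, 1 per probe and array, on a linear scale. Per the submitters' processing notes BeadStudio made them; which version and which normalization were used is not given in the sources used here. Sorted, the 12 columns differ by at most 2.35%, as after quantile normalization, and the lowest value of 169.9 shows that no background was taken off. A deposited table without normalization has 12 signal columns that match no sample's labels and were not used. Precision is limited by how few arrays there are. Of 48803 probes 28098 had exactly 1 gene symbol in the platform annotation, and the brightest probe of each of 18852 genes was kept.

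The log2 intensities were fitted with limma 3.58.1 in R 4.3.3, two-sided, on perifosine with presence of sorafenib as a covariate (9 residual and 3.62 prior degrees of freedom), and with 4 group means for each setting and their difference (8 and 3.52), adjusted by Benjamini-Hochberg over all genes, threshold 0.05. The fit was tested on simulated data, where changed genes moved equally with and without sorafenib and no array stood apart. That test does not cover differences between the settings or deviating arrays. The members and lists were chosen with earlier results of these data known. Genes named by rule were up to 12 called genes each way, up to 4 called members of a list or else its 2 brightest, TRIB3, AKT1 and AKT2; all others were named after their values were seen. Gene lists are described by counts and medians, with no set test. Alternatives were the model, the replicate block, arrays left out, array weights, normexp, quantile normalization, a dim-gene filter, the probe rule and the prior. Letters did not pair the arrays: of 18 same-letter pairs 5 deviated together with a correlation over 0.1, in a range of -0.573 to 0.487.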

Additional observations from a re-analysis of the deposited data

Results flagged for a closer look

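For 3 genes the perifosine effect itself differed between the settings by limma's test of the difference. MMP10 (stromelysin-2) measured 1063, 904 and 698 in the combination arrays, against 1147, 719 and 667 with sorafenib. It measured 8626, 8019 and 10699 with perifosine alone, against 1398, 1273 and 1155 in control. The difference of the log2 changes, with minus without sorafenib, was -2.73 (95% interval -3.39 to -2.08, adjusted p = 0.0127 by limma). The collagenase gene MMP1 measured 313, 328 and 308 in the combination arrays, against 284, 297 and 308 with sorafenib. It measured 1412, 2141 and 1770 with perifosine alone, against 327, 380 and 360 in control, and the difference was -2.21 (adjusted p = 0.00218 by limma). In the combination, sorafenib and control arrays MMP1 lay near the densest intensity of 275, where changes are understated. FERMT1 (kindlin-1, an integrin activator) measured 3202, 3245 and 3256 in the combination arrays, against 3197, 3561 and 3155 with sorafenib. It measured 7310, 7033 and 8236 with perifosine alone, against 3026, 3700 and 3319 in control, a difference of -1.2 (adjusted p = 0.0281 by limma). In all 3 the perifosine arrays without sorafenib lay above the control arrays without overlap, and the combination overlapped sorafenib alone. Their averaged changes of 1.46, 1.2 and 0.57 therefore describe neither setting, and they were called under 4 group means but not with sorafenib as a covariate.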

How the results depend on the processing

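The sign of the averaged change of the 8 genes called was the same under all alternatives that gave a value (WWC1 is not tested among genes of mean log2 at least 9), but the calls were not. The replicate block gave 0 called, 0 higher, 0 lower and 0 moved in both settings (37 called without sorafenib), normexp 2 (1 and 1; moved in both 2; without sorafenib 29), and only genes with a mean log2 of at least 9 gave 5 (2 lower; moved in both 5; difference of the settings 1). Array weights gave 57 (29 higher, 28 lower; moved in both 54; without sorafenib 349; difference 15), 4 group means 28 (18 and 10; moved in both 20), and leaving out the 3 arrays that stood apart 34 (17 and 17; moved in both 34; without sorafenib 293). The last choices together, added after seeing the data, gave 106 (69 higher, 37 lower; moved in both 55; without sorafenib 293). An intensity trend with a robust prior gave 2 lower and 34 without sorafenib. Leaving out single arrays gave 0 to 18 called, 0 to 11 higher, 0 to 7 lower and 0 to 18 moved in both settings, 11 to 155 without sorafenib and 1 to 4 for the difference. Requiring an adjusted p under 0.05 within each setting gave 0 moved in both. The count with sorafenib was 0 under all 23 alternatives. Of the 100 lowest genes with sorafenib, 39% to 59% kept their sign without it on leaving out single arrays, and 63% among genes of mean log2 at least 9; of the 100 lowest without sorafenib it was 64% to 84%. The cause of these changes was not tested. Over all settings the adjusted p of limma ran from 0.00228 to 0.127 for TCIM and from 0.00114 to 0.127 for THBS1. Signal near background limits WWC1 and genes under a mean log2 of 9.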

Other observations

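Smaller changes that were also without overlap in both settings, named after their values were seen and none called with sorafenib as a covariate, include genes of several kinds. SMOX, spermine oxidase, measured 3508, 3186 and 2981 in the combination arrays, against 2226, 2147 and 1779 with sorafenib. It measured 2205, 2410 and 2192 with perifosine alone, against 1918, 1817 and 1690 in control, so it was one of the genes with the larger change in the presence of sorafenib, 0.66 against 0.33 without it. SMOX was called under 4 group means (adjusted p = 0.0412 by limma). BTG1, an inhibitor of cell proliferation, had 0.39 with sorafenib and 0.55 without, and HES6, a basic helix-loop-helix factor, 0.46 and 0.39. On the lower side FZD7, a Wnt receptor, had -0.45 and -0.41, and PLCE1, phospholipase C epsilon, -0.44 and -0.50. Averaged adjusted p for BTG1, HES6, FZD7 and PLCE1 ran from 0.11 to 0.35 by limma.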
